A study of Mus musculus with 8 samples.

Results

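The genes described here make up the interferon and antiviral response: sensors of viral RNA, the interferon receptor and its kinases, the transcription factors that act below them, the antiviral effectors they induce, and the antigen presentation genes that respond to interferon. They were chosen by name, as a list of 44 genes, and 41 of them had a row among the 15794 genes of the expression tables. Oas2, Oasl1 and Ifi27 had no row under these symbols and were not analysed here as members. RefSeq gives Ifi27l1 as a synonym of Ifi27, but also lists Ifi27 as a synonym of Ifi27l2a. Ifi27l1 had a row at 33.7 FPKM in control, 29.6 in knockdown, 28.3 in cytoplasmic rescue and 27.1 in nuclear rescue and was counted with the other genes of the pathway. The RNA came from hippocampal neurons of the mouse kept in culture, with 4 groups of 2 samples each, 8 samples in all. All groups received an adeno-associated virus (AAV2/9) at 9 days in vitro (DIV), at 1500 genomic copies per cell for 12 hours, and Accell siRNA, which enters cells without a transfection reagent, from 10 DIV for 4 days. RNA was taken at 14 DIV. The control group carried SynI-EGFP virus and non-targeting siRNA. The knockdown group carried the same EGFP virus and siRNA against Rbfox1 and Rbfox3, which encode neuronal regulators of splicing. Both rescue groups carried the siRNA against Rbfox1 and Rbfox3 with a virus for Flag-Rbfox1_C_siMt, the cytoplasmic isoform, or Flag-Rbfox1_N_siMt, the nuclear isoform. SynI names the synapsin promoter, so the transgenes were driven in neurons while the RNA came from the whole culture. Every group was therefore exposed to a virus vector and to siRNA, and no untreated culture was analysed here.

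Cells recognise viral RNA through cytoplasmic helicases of the RIG-I family, which signal through the mitochondrial adaptor MAVS, and through the endosomal receptor TLR3. These routes switch on type I interferon, which binds a receptor made of IFNAR1 and IFNAR2 and, through the kinases JAK1 and TYK2, assembles STAT2 and IRF9 into a complex that enters the nucleus. That complex binds the interferon-stimulated response element in the promoters of genes such as the Ifit family, Mx1, Isg15 and Bst2. In brain cultures, astrocytes and microglia as well as neurons carry parts of this system.

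The response element is built around repeats of the letters GAAANNGAA, and this interferon response core was searched on both strands of the promoter windows in RefSeq (GRCm38.p6, 250 bases before to 50 after each annotated start). Windows were found for 37 of the 41 measured genes, and none for Usp18, Dhx58, Mx1 and Mx2. Of the 37 genes, 18 (48.6%) held the core at least once, against 9.76% of all 27025 genes with a window, and 10 genes (27.0%) held it at least 2 times in 1 window, against 0.736% of all genes. Levels are in FPKM, the authors' fragment counts normalised to transcript length and library size. Among genes that reached 1 FPKM in a group, the windows of Ifit3 and Ifit1 each held the core 3 times, and those of Bst2, Ifitm3, Adar and Trim21 2 times. The stretches before the start of Ifit3, Ifit1 and Bst2 are shown because they held the most cores wholly upstream of the start. Capitals mark the core, which lies on the opposite strand in both Ifit promoters, and overlapping cores appear as 1 longer run of capitals.
Ifit3: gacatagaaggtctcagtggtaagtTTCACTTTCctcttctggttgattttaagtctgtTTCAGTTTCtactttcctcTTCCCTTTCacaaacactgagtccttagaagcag
Ifit1: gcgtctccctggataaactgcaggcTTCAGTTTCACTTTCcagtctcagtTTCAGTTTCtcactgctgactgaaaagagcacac
Bst2: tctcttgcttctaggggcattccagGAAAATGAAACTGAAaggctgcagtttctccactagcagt
In GRCm38.p6 these stretches are chr19:34583349-34583460 on the plus strand for Ifit3, chr19:34640755-34640838 on the plus strand for Ifit1 and chr8:71537563-71537627 on the minus strand for Bst2.
A second pattern, TTCNNNGAA, the core that STAT dimers bind, was present in 12 of the 37 genes (32.4%), against 9.55% of all genes. In Bst2 it starts 136 bases before the start and overlaps the first interferon response core. The windows of Tlr3, Mavs, Jak1 and Tap1 held no interferon response core, which says only that these letters are not in these windows.

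**Figure D1:**
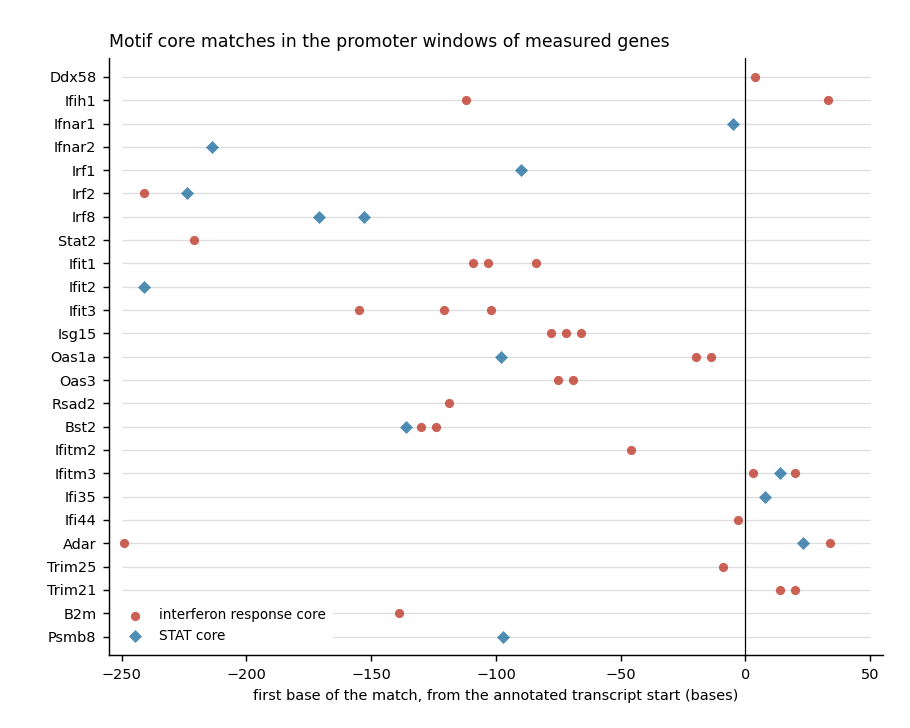
Position of each motif core match in the promoter windows of measured genes, in bases from the annotated transcript start on the horizontal axis, with 1 line per gene. Ifit1, Ifit3 and Isg15 each have 3 interferon response cores before the start, and the matches of Ifitm3 and Trim21 lie after it.

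The authors' tables give 1 FPKM value per group, with the samples of a group already combined, so no spread between samples can be given. The error printed with each log2 ratio is the implied error, the authors' log2 ratio divided by their test statistic, and intervals are 95% intervals from it. The labels do not tell whether each sample was a culture of its own, so that error may be technical. Library totals were not used here and the depth per sample is unknown. The knockdown itself was seen in both target genes: Rbfox1 was 25.7 FPKM in control, 1.94 in knockdown, 16.1 in cytoplasmic rescue and 38.2 in nuclear rescue, and Rbfox3 was 12.4, 1.59, 1.59 and 1.53 FPKM. Neuronal markers were present (7 of 8 measured, summed at 1221 to 1268 FPKM per group), and so were astrocyte markers (8 of 8, 1407 to 1556 FPKM), oligodendrocyte lineage markers (8 of 8, 246 to 270 FPKM) and microglia markers (11 of 12, 25.1 to 35.7 FPKM). In such mixed cultures, fewer cells of a type and less RNA per cell cannot be told apart.

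Most of the interferon and antiviral genes were expressed at low to moderate levels in all groups. Of the 41 genes, 27 reached 1 FPKM in at least 1 group, and their median level was 4.20 FPKM in control, 4.32 in knockdown, 4.03 in cytoplasmic rescue and 4.42 in nuclear rescue. The most abundant was B2m, above 91 FPKM in every group, which exceeded 94.6% of all genes in control. The authors' locus for B2m runs from 121945844 to 122011925 on chromosome 2, and such loci can join neighbouring genes. Targets of interferon spread widely over the range: in control Rsad2 exceeded 10.2% of all genes, Isg15 19.6%, Bst2 42.2%, Ifit2 42.4% and Ifit3 47.7%. Higher in control were Adar, which exceeded 71.2% of all genes, Ifitm3 with 74.6% and Ifitm2 with 78.2%. The summed level of the 41 genes was 276 FPKM in control, 286 in knockdown, 271 in cytoplasmic rescue and 275 in nuclear rescue, where Ifi44 entered only the first 2 sums.

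**Figure D2:**
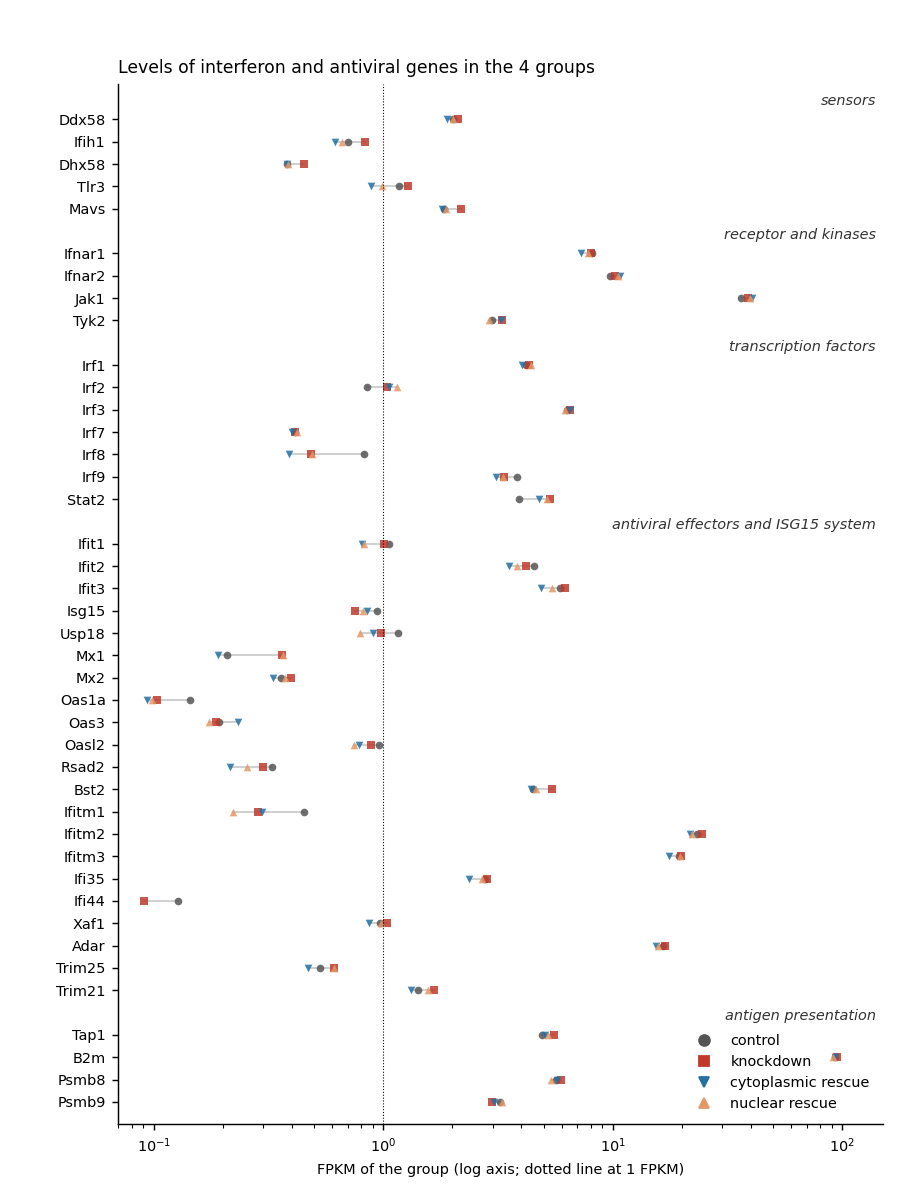
FPKM of each measured gene in the 4 groups on a log axis, 1 row per gene and grouped by role, with a symbol for each group value and a line over their range. Most genes span a narrow range, B2m lies highest, and Irf8, Ifitm1 and Mx1 show wide gaps between groups.

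None of these genes passed the authors' threshold, a q-value below 0.05, in any of the 3 deposited comparisons. In the authors' deposited table of knockdown against control, 0 of 41 genes passed, where 2.35% of all genes did. For cytoplasmic rescue against knockdown 0 of 40 passed, where 0.506% of all genes did, and for nuclear rescue against knockdown 0 of 40, where 0.11% did. With so few calls among all genes, a count of 0 among about 40 genes is close to the background. At an unadjusted p below 0.05 the knockdown table held 2 of 41 genes (4.88%, against 10.9% of all genes), Stat2 higher and Irf8 lower. The cytoplasmic rescue table held 4 of 40 lower (10%, against 3.47% of all genes), Tlr3, Mx1, Ifih1 and Ifit3, and 0 higher (1.87% of all genes). The nuclear rescue table held 1 lower, Tlr3 (2.5%, against 0.484%), and 0 higher (0.562% of all genes).

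The 95% intervals rest on the implied error, which may be technical, so they may not cover differences between cultures. Over the 27 genes at 1 FPKM or above, every 95% interval lay within a 2-fold change in the 3 deposited comparisons. In knockdown against control the lowest bound was -0.71 (log2), for Usp18, and the highest 0.73, for Irf2. For cytoplasmic rescue against knockdown the bounds ran from -0.91, for Tlr3, to 0.48, for Psmb9. For nuclear rescue against knockdown they ran from -0.84, for Usp18, to 0.61, for Psmb9. Among the 14 genes below 1 FPKM the implied error was larger, up to 0.61 in the knockdown comparison, and the interval of Mx1 reached from -0.11 to 1.71.

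**Figure D3:**
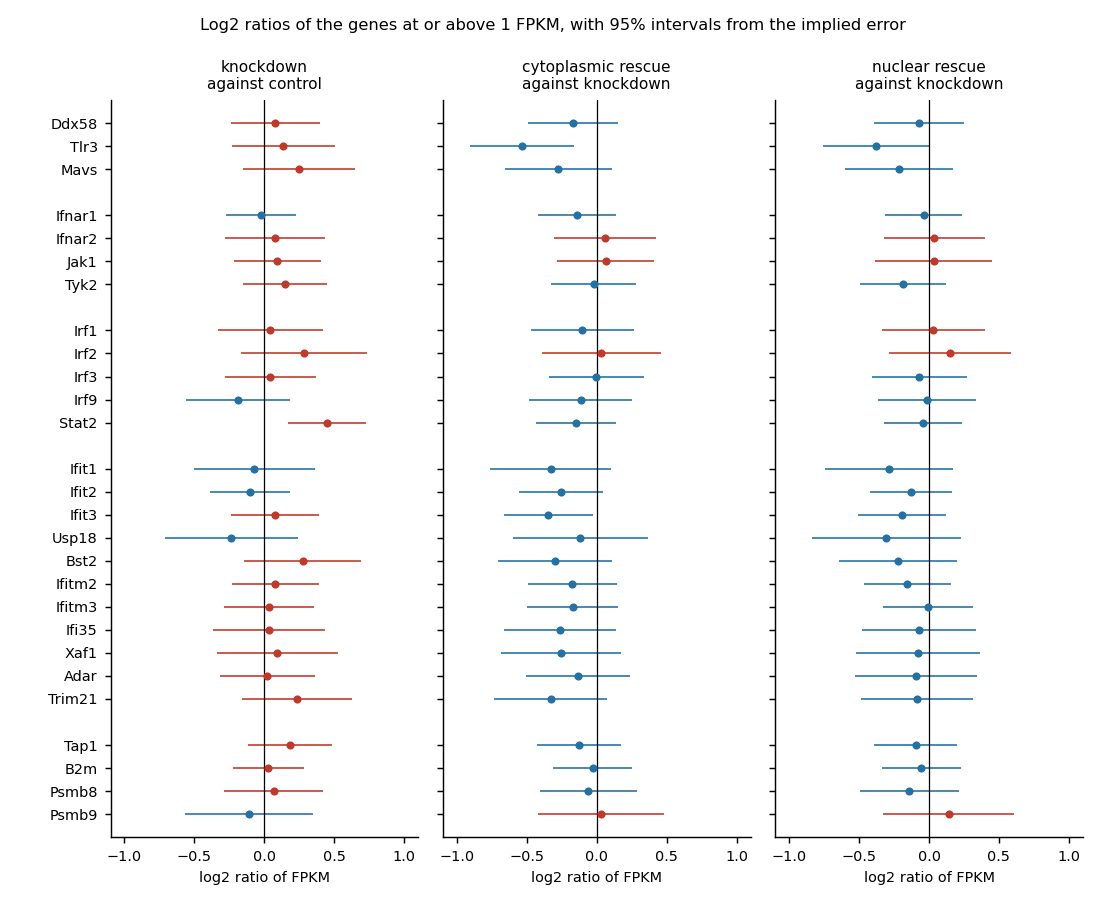
Log2 ratio of FPKM for the 27 genes at 1 FPKM or above in the 3 deposited comparisons, with points for the ratio and bars for the 95% interval from the implied error. The interval of Stat2 lies above 0 in the knockdown panel, and those of Tlr3 and Ifit3 lie below 0 in the cytoplasmic rescue panel.

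Over the whole list, small differences leaned below 0 in both rescues against knockdown. In knockdown against control the list lay closer to all genes, and the genes above and below 1 FPKM leaned in opposite directions. In knockdown against control 26 of 41 genes (63.4%) were above 0, with a median log2 ratio of 0.04, against 55.3% of all genes and a median of 0.02. Of the 27 genes at 1 FPKM or above, 21 (77.8%) were above 0 (median 0.08), against 57.3% of all genes at that level. A gene could reach that level in any 1 group, so the choice of these genes is not independent of the values compared. Xaf1 reached it only in knockdown, Irf2 in every group but control, and Usp18 only in control. Of the 14 genes below 1 FPKM, 5 (35.7%) were above 0, against 47.0% of all genes below 1 FPKM. Against knockdown, cytoplasmic rescue had 33 of 40 genes (82.5%) below 0, with a median of -0.16, against 67.2% of all genes and a median of -0.06. In nuclear rescue against knockdown 30 of 40 (75%) were below 0, with a median of -0.08, against 56.1% of all genes and a median of -0.02. All 3 comparisons share the knockdown group, so opposite signs in the knockdown and rescue tables are not separate observations. Across all 4 groups, 24 of 40 genes (60%) were lowest in cytoplasmic rescue, against 35.8% of all genes, and 20 of 40 (50%) were highest in knockdown, against 29.9%. With the median of all genes at 1 FPKM or above in each comparison taken as 0, 29 of 40 were below 0 in cytoplasmic rescue and 29 of 40 in nuclear rescue. Astrocyte markers were below 0 in 7 of 8 in cytoplasmic rescue (median log2 ratio -0.10) and in nuclear rescue (-0.06). Their summed level was 1556 FPKM in control and in knockdown, 1407 in cytoplasmic rescue and 1417 in nuclear rescue. Oligodendrocyte lineage markers were below 0 in 7 of 8 in cytoplasmic rescue (-0.15) and 5 of 8 in nuclear rescue (-0.007). All 3 endothelial and vascular markers with a ratio were below 0 in both rescues. For neuronal markers the counts were 3 of 7 and 4 of 7, and for microglia markers 2 of 11 and 6 of 11. The part of any cell type in the lean of the interferon genes was not tested.

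**Figure D4:**
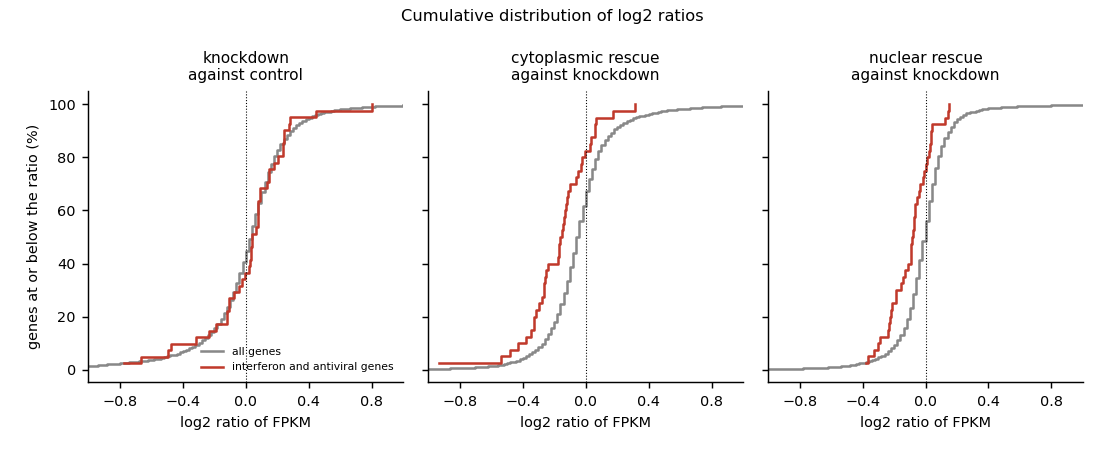
Cumulative share of genes, in percent, at or below each log2 ratio of FPKM in the 3 deposited comparisons, for the interferon and antiviral genes and for all genes. The curves run closer together in the knockdown panel than in the rescue panels. In both rescue panels the curve of the interferon and antiviral genes lies to the left, with 82.5% and 75% of them below 0.

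The sensors of viral RNA, counted here with the adaptor Mavs, gave the same sign in every member within each deposited comparison. All 5 were above 0 in knockdown against control (median log2 ratio 0.24), where 55.3% of all genes were. Every 95% interval of the 5 in that comparison included 0. Against knockdown, all 5 were below 0 in cytoplasmic rescue (median -0.27), where 67.2% of all genes were. All 5 were also below 0 in nuclear rescue (median -0.22), where 56.1% of all genes were. None passed q 0.05, where 2.35%, 0.506% and 0.11% of all genes did in the same order of comparisons. These comparisons share the knockdown group, so the opposite signs are not separate observations. Ifih1 and Dhx58 stayed below 1 FPKM in every group. Tlr3, the endosomal receptor for double-stranded RNA (chromosome 8, 46481019 to 46495893), was 1.17 FPKM in control, 1.28 in knockdown, 0.886 in cytoplasmic rescue and 0.988 in nuclear rescue. Both rescue values were thus below both values of the groups with EGFP. In the authors' deposited table the log2 ratio of Tlr3 in cytoplasmic rescue against knockdown was -0.54 with an implied error of 0.19 (p = 0.0047, q = 0.224). In nuclear rescue against knockdown it was -0.38 with an error of 0.19 in the authors' deposited table (p = 0.0486, q = 0.78). Mavs, the adaptor that the cytoplasmic helicases signal through, was 1.84 FPKM in control, 2.18 in knockdown, 1.80 in cytoplasmic rescue and 1.88 in nuclear rescue, highest in knockdown. Ddx58, which encodes the helicase RIG-I, was 2.01, 2.12, 1.89 and 2.02 FPKM in the same order and differed little between groups. Ifih1, the gene of the long double-stranded RNA sensor MDA5, was lower at 0.702, 0.829, 0.616 and 0.661 FPKM. Its log2 ratio in cytoplasmic rescue against knockdown was -0.43 with an error of 0.20 (p = 0.0321 and q = 0.648 in the authors' deposited table). Dhx58, the third helicase of this family, known as LGP2, lay between 0.379 and 0.449 FPKM.

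The receptor and its kinases lay between 87.9% and 104% of knockdown in both rescues, and all their intervals included 0. Ifnar1, a receptor chain, was 8.14 FPKM in control, 8.01 in knockdown, 7.26 in cytoplasmic rescue and 7.80 in nuclear rescue. Ifnar2, the other chain, was 9.74, 10.3, 10.7 and 10.6 FPKM in that order. Jak1, the kinase shared with many cytokine receptors, was 36.3, 38.7, 40.4 and 39.6 FPKM, the highest of these 4 genes. Tyk2, its partner kinase at the interferon receptor, was 2.98, 3.30, 3.25 and 2.90 FPKM. Their median log2 ratio was 0.08 in knockdown against control, 0.02 in cytoplasmic rescue against knockdown and -0.0026 in nuclear rescue against knockdown.

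Among the transcription factors, Stat2 and Irf8 showed the largest differences in knockdown against control, in opposite directions. Stat2, the partner of IRF9 in the interferon-activated complex (chromosome 10, 127707632 to 127729905), was 3.89 FPKM in control, 5.31 in knockdown, 4.79 in cytoplasmic rescue and 5.15 in nuclear rescue, lowest in control. In the authors' deposited table its log2 ratio in knockdown against control was 0.45 with an error of 0.14 and a 95% interval of 0.17 to 0.73 (p = 0.0017, q = 0.114). It lay near the knockdown level in both rescues, with log2 ratios of -0.15 (error 0.15) and -0.04 (error 0.14). Irf9, its partner, was 3.82, 3.35, 3.10 and 3.32 FPKM in the same order of groups, highest in control. Irf1, an early interferon-induced activator, was 4.20, 4.32, 4.03 and 4.42 FPKM. Irf3, the factor that the RNA sensors activate to switch on interferon itself, was 6.31, 6.49, 6.48 and 6.19 FPKM, and its groups were close together. Irf2, which competes with IRF1 for its sites, was 0.851, 1.04, 1.06 and 1.15 FPKM. Irf7, the factor that amplifies interferon production, was 0.398 to 0.421 FPKM in all groups.

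Irf8, a regulator of macrophages and microglia (chromosome 8, 123260276 to 123280592), was 0.825 FPKM in control, 0.483 in knockdown, 0.389 in cytoplasmic rescue and 0.491 in nuclear rescue. All 3 groups with siRNA against Rbfox1 and Rbfox3 lay below control. In the authors' deposited table the log2 ratio in knockdown against control was -0.77 with an error of 0.24 and an interval of -1.25 to -0.30 (p = 0.0015, q = 0.103). With the q-value recomputed from that table's p-values alone it was 0.0491, on the other side of the threshold. Microglia markers moved with it: all 11 with a row were lower in knockdown than in control, 3 of them passing q 0.05 in the authors' deposited table (C1qa, C1qc and Csf1r). Of all genes, 44.7% were lower in that comparison and 2.35% passed. The summed level of these markers was 35.7 FPKM in control, 26.3 in knockdown, 29.0 in cytoplasmic rescue and 25.1 in nuclear rescue, and no measured marker was at 0. As a percentage of control, Irf8 stood at 58.5% in knockdown, 47.1% in cytoplasmic rescue and 59.5% in nuclear rescue, and the median of the 11 markers at 56.9%, 76.7% and 59.4%. Of the 11 markers, 9 were above 0 in cytoplasmic rescue against knockdown, where 32.8% of all genes were, while Irf8 was below 0. The part of microglia in the level of Irf8 was not tested.

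**Figure D5:**
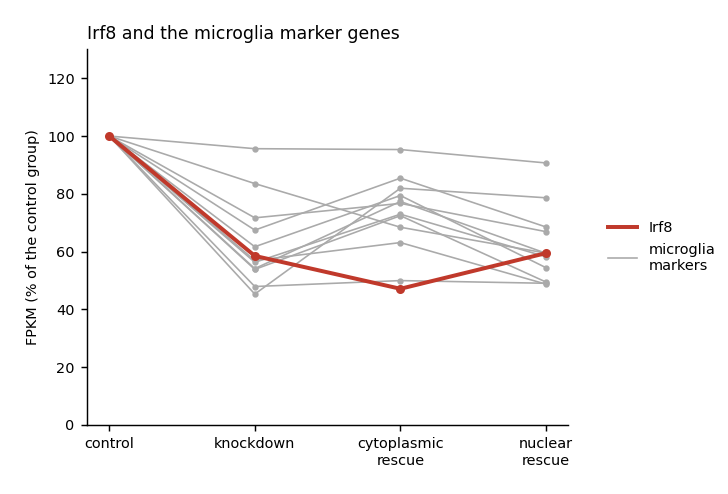
FPKM of Irf8 and of the 11 measured microglia marker genes in each group, as a percentage of the control group, joined by lines. Irf8 stands at 58.5% of control in knockdown, 47.1% in cytoplasmic rescue and 59.5% in nuclear rescue, and the markers at medians of 56.9%, 76.7% and 59.4%.

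The antiviral effectors and the ISG15 system are the part of the list that interferon induces most directly. In knockdown against control they were divided, with 11 of 21 above 0 and a median log2 ratio of 0.02. Of all genes, 55.3% were above 0, also with a median of 0.02. Against knockdown, 17 of 20 were below 0 in cytoplasmic rescue (median -0.26), where 67.2% of all genes were (median -0.06). In nuclear rescue 17 of 20 were below 0 (median -0.10), where 56.1% of all genes were (median -0.02). None passed q 0.05 in either rescue, where 0.506% and 0.11% of all genes did. Both rescue comparisons use the same knockdown group, so their counts are not separate observations. Ifit3, one of the proteins with tetratricopeptide repeats that bind viral RNA or its partners (chromosome 19, 34658019 to 34663472), was 5.86 FPKM in control, 6.18 in knockdown, 4.86 in cytoplasmic rescue and 5.41 in nuclear rescue. Cytoplasmic rescue was thus the lowest group, at 78.7% of knockdown. In the authors' deposited table that log2 ratio was -0.35 with an error of 0.16 (p = 0.0335, q = 0.664). Its neighbours on chromosome 19 ranked the groups alike at the low end: Ifit2 was 4.51, 4.20, 3.52 and 3.84 FPKM in control, knockdown, cytoplasmic rescue and nuclear rescue. Ifit1, whose protein binds the 5' end of viral RNA, was 1.06, 1.01, 0.804 and 0.827 FPKM. The Ifit genes have near-identical copies in the mouse, and how the authors' processing split reads between copies is not given in the sources used here.

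Bst2, the surface protein tetherin that holds budding virions, was 4.48 FPKM in control, 5.41 in knockdown, 4.41 in cytoplasmic rescue and 4.65 in nuclear rescue, highest in knockdown. Its log2 ratio was 0.27 with an error of 0.21 in knockdown against control and -0.30 with an error of 0.21 in cytoplasmic rescue against knockdown, and both intervals included 0. Trim21, a cytoplasmic antibody receptor, followed the same order of groups at 1.42, 1.67, 1.33 and 1.57 FPKM. Ifitm2 and Ifitm3, membrane proteins that block viral fusion, were the most abundant of the measured effectors, and both were lowest in cytoplasmic rescue. Ifitm2 was 23.3 FPKM in control, 24.6 in knockdown, 21.8 in cytoplasmic rescue and 22.1 in nuclear rescue. Ifitm3 was 19.4, 19.8, 17.6 and 19.7 FPKM in the same order. Adar, the enzyme that edits double-stranded RNA, was 16.6, 16.9, 15.4 and 15.8 FPKM and varied little. Ifi35, an interferon-induced leucine zipper protein, was 2.78, 2.84, 2.37 and 2.70 FPKM, again lowest in cytoplasmic rescue. Xaf1, a proapoptotic interferon-induced gene, was 0.971, 1.04, 0.867 and 0.981 FPKM. Usp18, the protease that removes ISG15 and damps receptor signalling, ran the other way in knockdown, at 1.16 FPKM in control, 0.981 in knockdown, 0.904 in cytoplasmic rescue and 0.794 in nuclear rescue.

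A group of 10 effectors stayed below 1 FPKM in all groups in which they were listed. Mx1, a dynamin-like GTPase that blocks viral replication (chromosome 16, 97668642 to 97684513), had the largest log2 ratio of the list in knockdown against control and in cytoplasmic rescue against knockdown. It was 0.208 FPKM in control, 0.362 in knockdown, 0.190 in cytoplasmic rescue and 0.364 in nuclear rescue. Control and cytoplasmic rescue were thus low, and knockdown and nuclear rescue high. In the authors' deposited table its log2 ratio was 0.80 with an error of 0.47 in knockdown against control (p = 0.0855, q = 0.968). In cytoplasmic rescue against knockdown it was -0.93 with an error of 0.42 in the authors' deposited table (p = 0.0281, q = 0.61). At this level the groups differ by less than 0.2 FPKM. Its relative Mx2 was 0.330 to 0.397 FPKM. Isg15, the ubiquitin-like modifier, was 0.936 FPKM in control, 0.751 in knockdown, 0.848 in cytoplasmic rescue and 0.817 in nuclear rescue. Rsad2, which encodes viperin, was 0.326, 0.30, 0.214 and 0.255 FPKM, lowest in cytoplasmic rescue. Trim25, the ligase that aids RIG-I signalling, was 0.529, 0.610, 0.470 and 0.611 FPKM. Of the oligoadenylate synthetase family, which makes the activator of RNase L, Oas1a lay between 0.0932 and 0.143 FPKM, Oas3 between 0.173 and 0.232, and the related Oasl2 between 0.746 and 0.959. Ifitm1 lay between 0.221 and 0.451 FPKM, with the largest error of the list in nuclear rescue against knockdown, 0.97. Ifi44 was listed only in the knockdown table, at 0.127 FPKM in control and 0.0902 in knockdown.

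None of the antigen presentation genes had an interval without 0 in the deposited comparisons. B2m, the light chain of class I molecules, was 92.8 FPKM in control, 94.7 in knockdown, 92.8 in cytoplasmic rescue and 91.1 in nuclear rescue. Its interval in cytoplasmic rescue against knockdown was -0.31 to 0.25 on the log2 scale. Tap1, the peptide transporter, was 4.89, 5.55, 5.09 and 5.20 FPKM in control, knockdown, cytoplasmic rescue and nuclear rescue. Psmb8 was 5.67, 5.94, 5.70 and 5.38 FPKM, and Psmb9 was 3.22, 2.99, 3.05 and 3.30 FPKM, both subunits of the immunoproteasome that cuts peptides for class I molecules.

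Genes with and without the interferon response core were set side by side. In cytoplasmic rescue against knockdown 14 of 17 genes with the core were below 0 (median log2 ratio -0.17) and 15 of 19 without it (median -0.12). In nuclear rescue against knockdown the counts were 14 of 17 (median -0.08) and 13 of 19 (median -0.07). In knockdown against control 12 of 18 with the core were above 0 and 11 of 19 without it, with medians of 0.05 and 0.04. The difference between genes with and without the core was not tested.

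The isoforms were compared with each other and with control by a z test of the log2 ratios, with the implied errors added through the shared knockdown group and Benjamini-Hochberg adjustment over all genes. The error of the knockdown group enters such a sum from both tables, which makes the test conservative with respect to the implied errors. As these may be technical, the test need not be conservative for differences between cultures. In cytoplasmic rescue against nuclear rescue 0 of 40 genes passed q 0.05, against 0.0269% of all genes, and 0 had an unadjusted p below 0.05, against 0.82% of all genes. Below 0 were 29 of 40 (72.5%, median log2 ratio -0.09), against 64.0% of all genes (median -0.04). With the median of all genes at 1 FPKM or above taken as 0, the number below 0 was 24 of 40. Mx1 had the largest difference between the isoforms, -0.94, with an interval of -2.06 to 0.19 in the z test. In cytoplasmic rescue against control 0 of 40 passed the z test, against 0.422% of all genes, and 1 had an unadjusted p below 0.05 (2.5%, against 4.05% of all genes), Irf8 at a log2 ratio of -1.09 with an interval of -1.80 to -0.38. With the larger of the implied errors alone, 1 of the 40 genes, Irf8, passed in cytoplasmic rescue against control, and all genes called rose from 63 to 328. Of the effectors in that comparison, 19 of 20 lay below control, the exception being Oas3, with a median of -0.17, against 57.8% of all genes and a median of -0.04. Markers below control there were 7 of 8 for astrocytes, 10 of 10 for microglia and 3 of 3 for vascular cells. For neurons they were 4 of 7 and for the oligodendrocyte lineage 3 of 8. With the nuclear isoform, 13 of 20 effectors lay below control (median -0.095), where 48.6% of all genes did (median 0.0067). In nuclear rescue against control 0 of 40 passed, against 0.72% of all genes, and 2 had an unadjusted p below 0.05 (5%, against 5.12% of all genes). These were Irf8 at -0.75 with an interval of -1.47 to -0.03, and Stat2 at 0.40 with an interval of 0.0086 to 0.80. Of the 27 genes at 1 FPKM or above, all had an interval within a 2-fold change between the isoforms, and 25 did so in each rescue against control.

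Other genes of the pathway were read from a list of 75, of which 58 had a row. In knockdown against control 2 passed q 0.05 in the authors' deposited table, both higher: Eif2ak2 and Ifi203. They are 2 of 58 genes, where 2.35% of all genes passed. Eif2ak2 encodes PKR, the kinase that halts translation when it binds double-stranded RNA, and was 7.06 FPKM in control, 19.3 in knockdown, 6.74 in cytoplasmic rescue and 6.63 in nuclear rescue. Its log2 ratio was 1.45 with an error of 0.18 in knockdown against control, -1.52 with an error of 0.19 in cytoplasmic rescue against knockdown and -1.54 with an error of 0.18 in nuclear rescue against knockdown, and it passed q 0.05 in all 3 of the authors' deposited tables. No other gene of this list passed in either rescue table. Ifi203, a member of the HIN-200 family of DNA-binding proteins, was 2.96 FPKM in control, 5.37 in knockdown, 5.35 in cytoplasmic rescue and 5.05 in nuclear rescue, so that it was high in all groups with siRNA against Rbfox1 and Rbfox3. Its log2 ratio in knockdown against control was 0.86 with an error of 0.18. Over the list the median log2 ratio was 0.05 in knockdown against control, -0.13 in cytoplasmic rescue (50 of 58 below 0, where 67.2% of all genes were) and -0.08 in nuclear rescue (43 of 57 below 0, where 56.1% of all genes were).

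The authors' splicing tables list cassette exons called as changed, 214 in knockdown against control, 150 in cytoplasmic rescue and 318 in nuclear rescue against knockdown. None of these exons lay in the interferon and antiviral genes. Of all 15794 genes, 1.14%, 0.829% and 1.7% held a listed exon in these tables, so a count of 0 among 41 genes is close to the background. The list of other pathway genes held 1, an exon of 144 nt in Ifi203 (mm9, chr1:175863914-175864057, minus strand). Its inclusion fraction in the authors' deposited table was 0.733 in knockdown and 0.836 in cytoplasmic rescue, with 13 and 5 reads on the skipping junction. In nuclear rescue the authors' deposited table gave 0.873, with 8 such reads.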

How the data were processed

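Cultured mouse hippocampal neurons were sequenced as ribosome-depleted, non-stranded libraries with paired reads of 50 nt, per the labels' protocols, so overlapping antisense genes cannot be told apart. Per the submitters' processing notes CASAVA, Cufflinks and build mm9 were used; no tool version was found in the labels. For each gene the authors deposited 1 FPKM value per gene and group, with the p-value and q-value of their test; log2 fold change and test statistic are deposited scores, in which infinite ratios are coded as extreme numbers. Deposited splicing tables hold inclusion fractions and skipping junction read counts of called exons, and 66 further value columns were not used.

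Log2 ratios were computed from FPKM and differed from the deposited ones by at most 0.00025. The p-values matched a two-sided normal tail of that statistic within 2.81e-06, so ratio divided by statistic was taken as the implied error. Knockdown FPKM values did not differ between tables. Calls were the authors' q below 0.05. Derived comparisons used a z test on genes with implied errors under 1 in both tables, with Benjamini-Hochberg adjustment. The z test between the isoforms was also run on simulated ratios, drawn independently with noise equal to the implied errors. That run could not show the effect of the shared knockdown group, or whether these errors cover differences between cultures. Genes at 1 FPKM or above in a group are named with all values, the others in part by range. Locus positions in mm9 start from 1 and are those of the authors' loci, which can join neighbouring genes. The genes and lists were chosen with earlier results of these data known. Python 3.11.15, pandas 2.3.3, scipy 1.17.1 and matplotlib 3.10.9 were used.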

Additional observations from a re-analysis of the deposited data

How the results depend on the processing

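With q recomputed from the p-values of the knockdown table alone, 1 gene (Irf8) passed in knockdown against control instead of 0, and 481 of all genes instead of 367. With the larger implied error alone in the z test, 1 gene (Irf8) passed in cytoplasmic rescue against control instead of 0, and all genes called rose from 63 to 328 there, from 107 to 423 in nuclear rescue against control and from 4 to 26 between the isoforms. In the knockdown table, genes called went from 367 to 238 at q below 0.01 and to 217 where log2(FPKM + 1) also had to differ by 0.5 or more. The same rules took the cytoplasmic rescue table from 79 to 41 and 48, and a recomputed q to 49. The 27 genes had 1 FPKM or above in at least 1 group, which need not be a group compared. Of these, 6 (22.2%) were below 0 in knockdown against control. Of all genes at that level, 42.7% were. Over the whole list 15 of 41 (36.6%) were. In cytoplasmic rescue against control 18 of 27 (66.7%) were below 0, where 57.0% of all genes at that level were. Over the list the count was 29 of 40 (72.5%). In nuclear rescue against control 14 of 27 (51.9%) were below 0, where 46.7% of all genes at that level were. Over the list it was 22 of 40 (55%). With the FPKM minimum applied to the groups compared, Stat2 alone of the 2 genes in the knockdown table, and Tlr3 and Ifit3 of the 4 in the cytoplasmic rescue table, stayed at an unadjusted p below 0.05. No other count of calls among these genes and no median changed beyond its error under the pseudocounts, filters and centring tried. Centring on the median of all genes changed the sign of 1 gene in the knockdown table (Adar), 4 in cytoplasmic rescue (B2m, Irf3, Irf7 and Tyk2) and 1 in nuclear rescue (Ifitm3), and lowered the number below 0 in cytoplasmic rescue from 33 to 29. On log2(FPKM + 1) the ratio of 3 genes in the knockdown table and 5 in the cytoplasmic rescue table shrank by more than its error. No paired analysis was possible because the tables hold 1 value per group. Leaving out single samples was not run for the same reason.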
